A study of Mus musculus with 6 samples.

Results

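CC chemokines are small secreted proteins that attract leukocytes, and the 10 described here are Ccl2, Ccl3, Ccl4, Ccl5, Ccl6, Ccl7, Ccl8, Ccl9, Ccl11 and Ccl28. They were taken as every non-control probe on the arrays that carries one of these gene names, which gave 1 probe for each of the 10 genes. Of the 10, 9 were measured well above background on all 6 arrays and entered a test across 42636 probes. Some of the tested probes carry no gene name, and the named ones stand for 18851 genes. Ccl11 was not well above background on any array and was not tested. The AROM+ mice are transgenic mice that over-express aromatase, the enzyme that converts androgens to oestrogens, and the control mice are wild type (WT). Total RNA came from single whole testes of males aged 5 months on the C57BL/6 genetic background, with 3 AROM+ testes and 3 WT testes, each on its own one-colour array with the dye Cy3. The promoter that drives the transgene and the species of its coding sequence are not given in the sources used here. In bulk tissue, more cells of a type and more RNA per cell cannot be told apart.

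CC chemokines act on G-protein-coupled receptors of leukocytes, and several ligands share a receptor. Ccl2 and Ccl7 draw monocytes through Ccr2. Ccl3 and Ccl5 act on Ccr1, as do Ccl6 and Ccl9, ligands that macrophages and other myeloid cells of rodents make. Ccl11 draws eosinophils through Ccr3, and Ccl28 is a chemokine of mucosal epithelia that acts on Ccr10 and Ccr3. Resident macrophages of the testis lie in the interstitium beside Leydig cells, the source of androgens.

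The 3 genes with the largest rises and the 1 gene that fell are shown by the start of their array probes, because each value below is the signal of that probe. The first 30 of the 60 bases are given 5′ to 3′ in lower case.
Ccl6: aatgtgtctggttctgatacaagcttaagc
Ccl9: caactaggatgaaataaattctgccttagc
Ccl3: catgaactgacaaatgtacaatagatgctt
Ccl28: gttactataccacaagttacttaaagtact
The files place these probes on NCBI37/mm9. The Ccl6 probe lies at chr11:83401997-83402056, the Ccl9 probe at chr11:83388223-83388282 and the Ccl3 probe at chr11:83461358-83461417, all on the minus strand. The Ccl28 probe lies on the minus strand of a contig that the build assigns to chromosome 13 without placing it. Whether a probe lies in a coding exon or a UTR is not given in the sources used here. Among the 45 pairs of the 10 member probes, the longest run of bases shared by a pair was 9, so that no pair of probes reads the same stretch of transcript.

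The RefSeq promoter table of GRCm38.p6 matched 5 of the 10 genes (Ccl3, Ccl6, Ccl8, Ccl9 and Ccl28). The 250 bases before the annotated start are shown for the genes that changed, since they moved in opposite directions. The strand of the gene is shown, and capitals mark matches to the motifs named after the sequences.
Ccl6: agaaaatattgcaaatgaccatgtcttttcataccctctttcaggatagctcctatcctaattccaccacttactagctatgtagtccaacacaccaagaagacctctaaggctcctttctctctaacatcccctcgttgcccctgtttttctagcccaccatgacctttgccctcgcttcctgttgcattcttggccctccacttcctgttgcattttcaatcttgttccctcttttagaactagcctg
Ccl9: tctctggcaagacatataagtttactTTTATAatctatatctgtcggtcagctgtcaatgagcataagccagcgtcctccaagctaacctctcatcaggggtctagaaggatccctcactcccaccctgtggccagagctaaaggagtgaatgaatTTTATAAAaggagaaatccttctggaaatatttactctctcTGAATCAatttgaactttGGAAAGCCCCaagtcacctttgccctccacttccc
Ccl3: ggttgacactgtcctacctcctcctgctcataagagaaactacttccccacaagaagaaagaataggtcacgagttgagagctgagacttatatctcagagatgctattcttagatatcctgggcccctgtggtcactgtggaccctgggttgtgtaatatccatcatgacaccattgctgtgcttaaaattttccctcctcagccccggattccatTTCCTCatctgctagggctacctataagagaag
Ccl28: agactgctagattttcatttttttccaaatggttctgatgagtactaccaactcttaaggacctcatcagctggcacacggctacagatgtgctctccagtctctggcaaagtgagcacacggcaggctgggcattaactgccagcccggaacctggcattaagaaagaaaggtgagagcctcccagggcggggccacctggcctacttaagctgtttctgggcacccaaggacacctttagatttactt
These stretches are chr11:83593088-83593337 for Ccl6, chr11:83578637-83578886 for Ccl9 and chr11:83649379-83649628 for Ccl3, all on the minus strand, and chr13:119623569-119623818 on the plus strand for Ccl28. Both strands were searched, and positions are counted back from the start. The Ccl9 promoter held a match to the NF-kB consensus at -35 to -26 and a match to the AP-1 motif TGANTCA at -53 to -47. Over all 32851 promoters of the same length in the table, 7.25% held the NF-kB consensus and 6.75% the AP-1 motif. Ccl9 also held 3 matches to TATAAA, of which those at -94 to -89 and -92 to -87 overlap each other on opposite strands. TATAAA stood in 12.4% of all promoters. The Ccl3 promoter held GAGGAA, a form of the PU.1 motif, at -33 to -28, as 23.3% of all promoters did at some position. Other forms of the PU.1 motif were not searched. Ccl6 and Ccl28 held none of the 6 motifs searched, which also included the C/EBP motif TTGCNNAA (9.56% of all promoters) and the oestrogen response element GGTCANNNTGACC (0.0639%). The matches describe the letters of these windows only.

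Ccl6, Ccl9, Ccl3, Ccl4 and Ccl2 were higher in AROM+ testes and Ccl28 was lower, while Ccl8, Ccl7 and Ccl5 did not pass the test. The differences of the risen genes ran from 5.06 on the log2 scale for Ccl6 to 1.42 for Ccl2. Of the 9 tested members, 5 were called higher and 1 lower with limma at an adjusted p under 0.05, against 18.8% of all tested genes called higher and 30.3% called lower. All 5 rises and the 1 fall were at least 2-fold. Of all tested genes, 6.8% were both called and at least 2-fold higher, and 1.33% were both called and at least 2-fold lower. The groups did not overlap in 6 members that were higher and 1 that was lower, against 23.2% and 40.3% of all tested genes. The median difference of the 9 members was 1.88, against -0.15 over all tested genes. Values below are log2 intensities relative to the 75th percentile of the array, so a value of 0 is as bright as that percentile, and a probe's value is set only against itself on other arrays.

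**Figure D1:**
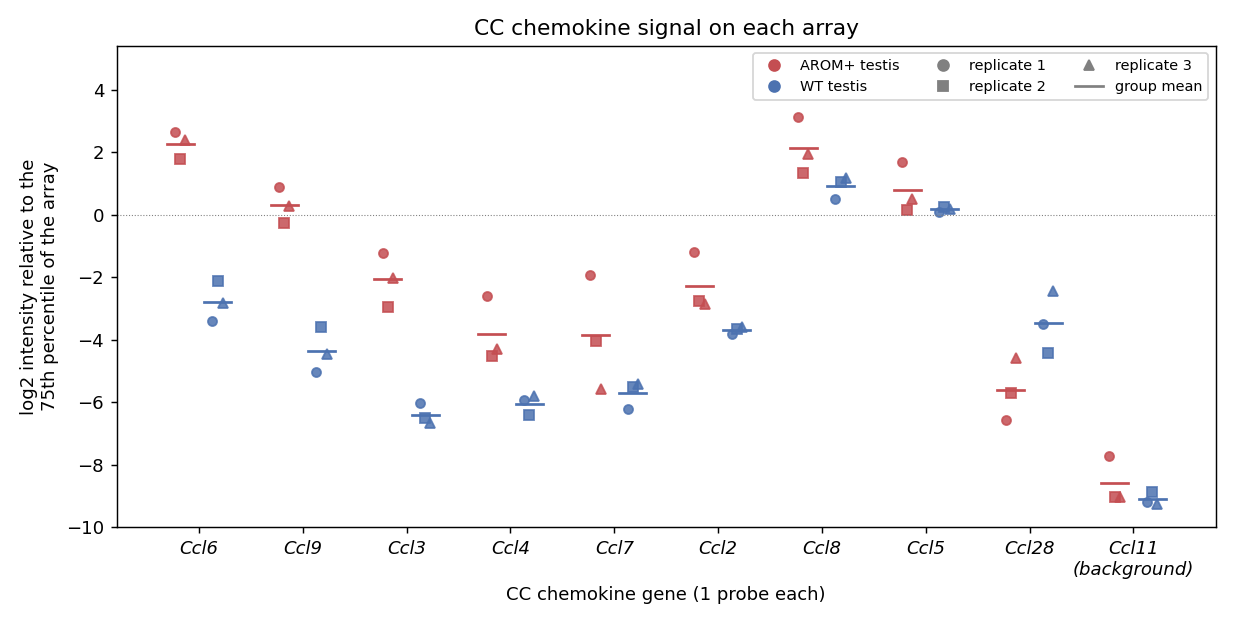
Log2 intensity relative to the 75th percentile of the array (y axis) for the 10 CC chemokine genes (x axis), with AROM+ testes left of WT testes, 1 point per array and lines at the group means (n = 3 each). Ccl6, Ccl9 and Ccl3 are separated widely, Ccl7 and Ccl5 overlap, Ccl28 is lower in AROM+, and Ccl11 is not well above background on any array.

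Ccl6, a myeloid chemokine of rodents, gave the largest difference of the members. Its values were 2.63, 1.78 and 2.39 in AROM+ replicates 1, 2 and 3, against -3.41, -2.14 and -2.82 in WT replicates 1, 2 and 3. The processed intensities behind them were 33859, 15326 and 22339 in AROM+ testes, against 423, 841 and 602 in WT testes. All 3 AROM+ arrays lay far above the 3 WT arrays, with 3.92 between the lowest AROM+ and the highest WT value. The difference was 5.06 ± 0.35 (SE), a 33.3-fold rise with a 95% interval of 18.7 to 59.3 (limma, adjusted p = 0.00154). Ranked by the size of the rise, it stood at place 13 of 18851 genes.

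Ccl9, which lies next to Ccl6 and is likewise a Ccr1 ligand, also rose in all 3 AROM+ testes. Its values were 0.89, -0.26 and 0.27 in AROM+ testes, against -5.05, -3.60 and -4.47 in WT testes. The groups were 3.34 apart at their nearest values. The difference was 4.67 ± 0.42, a 25.5-fold rise with an interval of 12.8 to 50.7 (limma, adjusted p = 0.00245), at place 22 of 18851. In WT testes the order of the 3 arrays was the same for Ccl9 as for Ccl6, with replicate 2 highest and replicate 1 lowest.

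Ccl3, a macrophage inflammatory protein that draws monocytes and granulocytes, was also higher in AROM+ testes, and its probe was dim in WT testes. Its values were -1.23, -2.97 and -2.01 in AROM+ testes, against -6.04, -6.51 and -6.66 in WT testes. The processed intensity was 40.5 to 68.4 in WT testes, where the probe was nevertheless well above background on all 3 arrays. The rise of 4.33 ± 0.42 was 20.1-fold with an interval of 10.2 to 39.9 (limma, adjusted p = 0.00275). With the normexp background correction it was 3.20, the largest move that another setting gave this gene.

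Ccl4, a macrophage inflammatory protein like Ccl3, rose less, though the difference between the 2 rises was not tested. It had -2.60, -4.53 and -4.30 in AROM+ testes, against -5.93, -6.41 and -5.82 in WT testes. The groups did not overlap, and AROM+ replicate 1 stood above the other AROM+ arrays. The difference was 2.24 ± 0.49, or 4.73-fold with an interval of 2.11 to 10.6 (limma, adjusted p = 0.0128). Without AROM+ replicate 1 it was 1.64, and with normexp 1.31, and the call was kept in both.

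Ccl5, which draws T cells and monocytes, was bright in both groups and was not called. Its values were 1.69, 0.14 and 0.51 in AROM+ testes, against 0.08, 0.25 and 0.18 in WT testes. AROM+ replicate 2 lay within the WT values, and AROM+ replicate 1 stood above all other arrays. The difference was 0.61 ± 0.37 with an interval of -0.27 to 1.49 (limma, adjusted p = 0.213), and it was 0.15 without AROM+ replicate 1.

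Ccl2, a monocyte chemoattractant, was measured by 10 spots per array, and the SD over those spots was at most 0.14 on any array. It had -1.19, -2.76 and -2.85 in AROM+ testes, against -3.83, -3.66 and -3.58 in WT testes. The WT values lay within 0.25 of each other, and all AROM+ values were above them, replicate 1 by the widest margin. The difference was 1.42 ± 0.42, or 2.68-fold with an interval of 1.34 to 5.38 (limma, adjusted p = 0.0328). Without AROM+ replicate 1 the difference was 0.89 and the call was kept, but it was lost without any 1 of the WT arrays, with adjusted p = 0.0879, 0.0743 and 0.0793 without WT replicates 1, 2 and 3. It was also lost with no filter on dim probes (adjusted p = 0.0582).

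Ccl8, which lies in the same stretch of chromosome 11 as Ccl2, had non-overlapping groups but did not pass the test. Its values were 3.13, 1.33 and 1.94 in AROM+ testes, against 0.51, 1.03 and 1.18 in WT testes. AROM+ replicate 2 was 0.15 above the highest WT array. The difference was 1.23 ± 0.44 with an interval of 0.19 to 2.27 (limma, adjusted p = 0.0581). It was called with normexp, with a variance trend and without AROM+ replicate 2, where it was 1.63, and it was 0.73 without AROM+ replicate 1.

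Ccl7, a second Ccr2 ligand, was the most scattered member among the AROM+ arrays. It had -1.93, -4.03 and -5.57 in AROM+ testes, against -6.22, -5.50 and -5.43 in WT testes. AROM+ replicate 3 lay within the WT values while AROM+ replicate 1 was far above them. The SD was 1.83 in AROM+ testes and 0.44 in WT testes (n = 3 each). The difference was 1.88 ± 0.83 with an interval of -0.10 to 3.85 (limma, adjusted p = 0.106). It was 2.74 and called without AROM+ replicate 3, called with array weights, and 0.92 without AROM+ replicate 1.

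Ccl11 had processed intensities of 25.6, 8.52 and 8.11 in AROM+ testes, against 7.75, 7.81 and 6.95 in WT testes. None of these 6 spots was well above background, so no fold is given.

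Ccl28 was the member that fell. Its values were -6.56, -5.71 and -4.58 in AROM+ testes, against -3.51, -4.44 and -2.46 in WT testes. The highest AROM+ value lay only 0.14 below the lowest WT value, and both groups spread over 1.98. The difference was -2.15 ± 0.62 with an interval of -3.63 to -0.66 (limma, adjusted p = 0.0308), and by size it was the fall at place 11 of 18851 genes. The call was lost without AROM+ replicates 1 or 2 and without WT replicates 1 or 3, where the difference was between -1.64 and -2.17 and the adjusted p between 0.0742 and 0.0889. It was also lost with no filter on dim probes (adjusted p = 0.0554).

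**Figure D2:**
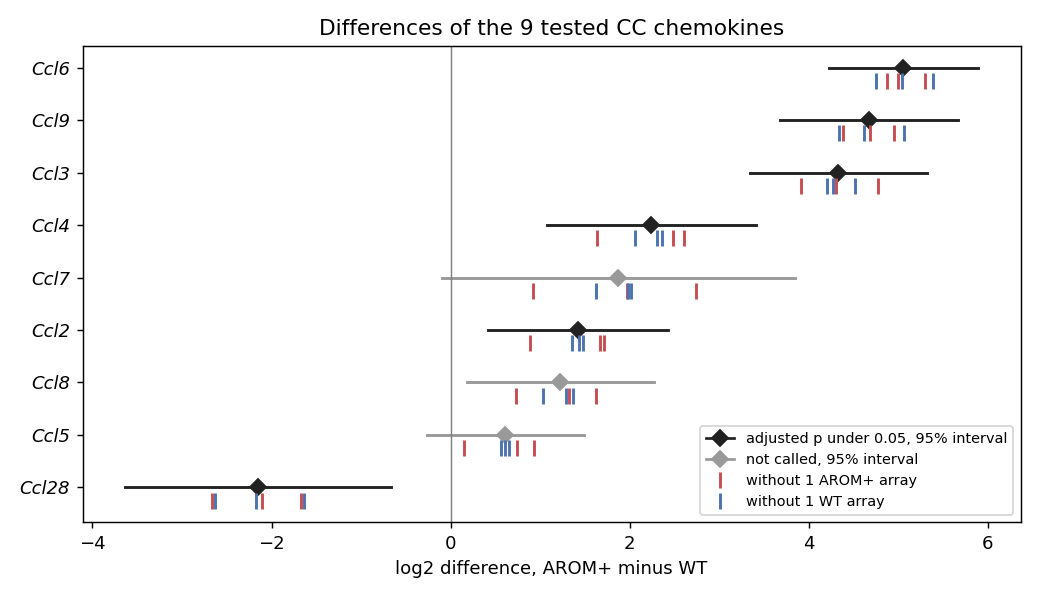
Log2 difference, AROM+ minus WT (x axis), of the 9 tested genes, with the 95% interval of the limma fit, black for called and grey for not called genes. Ticks below each gene give the difference without 1 AROM+ array (red) or 1 WT array (blue). Ccl6, Ccl9 and Ccl3 stay above 3.9 in every such fit, and Ccl28 stays below 0.

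Within the AROM+ group, replicate 1 had the highest value for all 8 tested members on chromosome 11 and the lowest for Ccl28. The lowest AROM+ value was that of replicate 2 in 6 of the 8 and of replicate 3 in the other two. Over the 9 tested members, the median rise over the WT mean was 3.45 in AROM+ replicate 1, 1.52 in replicate 2 and 1.04 in replicate 3. The median rise of 11 macrophage markers was 2.29, 1.18 and 1.57 in AROM+ replicates 1, 2 and 3. Replicate 1 had the highest median in both lists, while the medians of replicates 2 and 3 stood in opposite order. Gene by gene, replicate 3 was above replicate 2 in most genes of both lists. The part of macrophages in the chemokine differences was not tested.

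**Figure D3:**
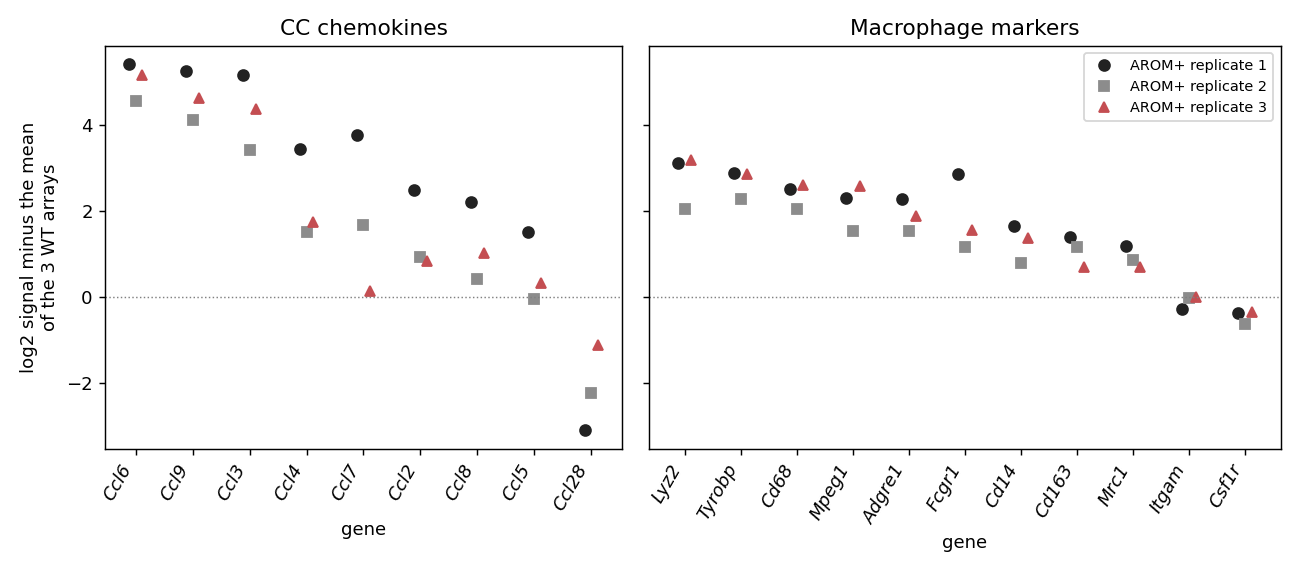
Log2 signal of each AROM+ array minus the mean of the 3 WT arrays (y axis) for the 9 tested CC chemokines (left) and 11 macrophage markers (right), with 1 symbol per AROM+ replicate. Replicate 1 is highest in the 8 chromosome 11 chemokines, while replicate 3 is highest for Lyz2, Cd68, Mpeg1, Itgam and Csf1r.

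The 9 chromosome 11 members lie in 2 stretches, by the probe positions of the files on NCBI37/mm9. The first, chr11:81850650-81930167, spans 79.5 kb and holds Ccl2, Ccl7, Ccl11 and Ccl8, of which 3 were tested and 1 was higher. The second, chr11:83339296-83478111, spans 139 kb and holds Ccl5, Ccl9, Ccl6, Ccl3 and Ccl4, of which 4 of 5 were higher. A gap of 1.41 Mb separates them. Genes around the stretches that are no CC chemokines, taken within 200 kb after the values were seen, did not share the rises in most cases. Of 12 such genes tested, 2 were higher and 4 lower, against 18.8% and 30.3% of all tested genes, with a median difference of -0.01. Of the 12, 1 lies around the first stretch and 11 around the second. The 2 that rose, Wfdc17 (1.92 ± 0.20) and Wfdc18 (2.11 ± 0.28), lie just beyond Ccl4, and Wfdc17 is known as a gene of activated macrophages. The lowest was the metalloprotease gene Mmp28 (-0.57 ± 0.10).

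**Figure D4:**
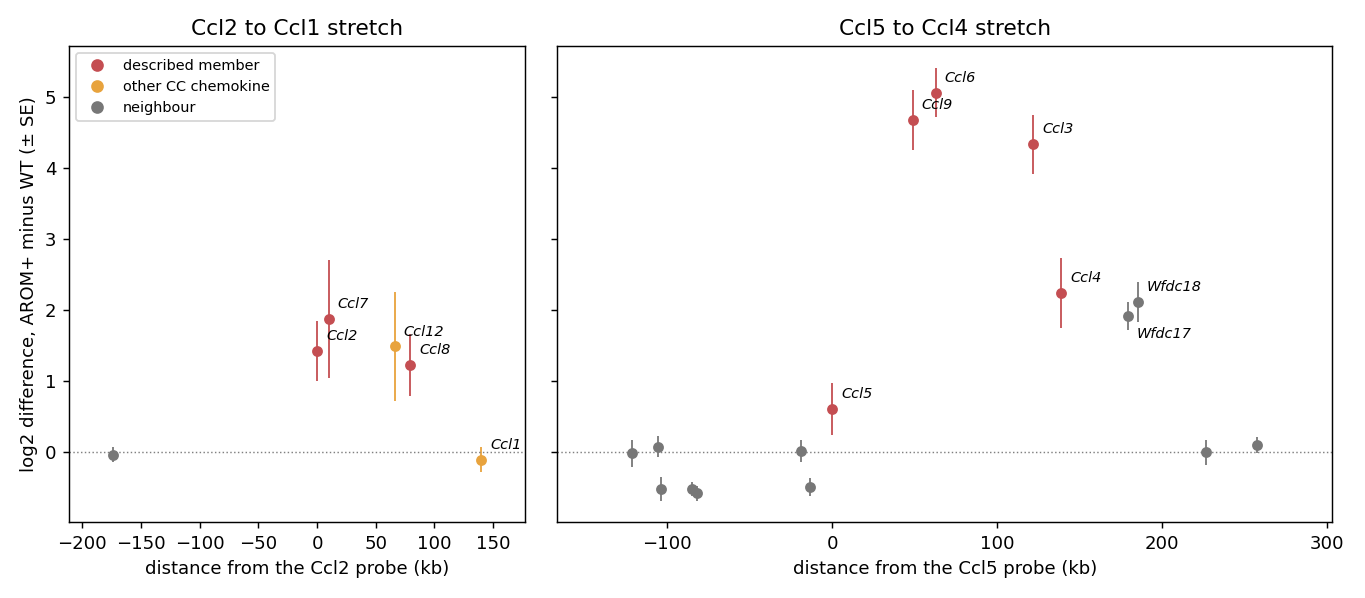
Log2 difference, AROM+ minus WT, with its SE (y axis) against the distance of each probe from the Ccl2 probe (left) or the Ccl5 probe (right) in kb, for the tested genes within 200 kb of the stretches on chromosome 11. Ccl9, Ccl6 and Ccl3 stand apart from their neighbours, Ccl4 lies within its SE of Wfdc18, and the neighbours that are no CC chemokines, other than Wfdc17 and Wfdc18, lie between -0.57 and 0.11.

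On chromosome 13, the order of protein-coding genes in the RefSeq table was used for the neighbours of Ccl28, also after their values were seen. Of the 4 genes on each side, 7 were tested and 2 were lower, against 30.3% of all tested genes. Tmem267, the gene next to Ccl28, had -0.72, 0.25 and 0.72 in AROM+ testes, against 1.42, 1.32 and 1.74 in WT testes, a difference of -1.41 ± 0.35 (limma, adjusted p = 0.0183). Its other probes differed by -1.63 and -1.98. AROM+ replicate 1 was lowest and WT replicate 3 highest for Tmem267, as for Ccl28. The other fall, 4833420G17Rik (-0.54 ± 0.09), rests on the brighter of its probes, and its other probe differed by 0.04. On the far side, Hmgcs1, an enzyme of sterol synthesis, differed by 0.22 ± 0.28, and its other probe by 1.03.

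Genes with the most similar profile were found as those with the smallest root-mean-square difference over the 6 arrays, after each was centred on its WT mean, among 18287 genes. For Ccl6 these were Atf3, a stress-induced transcription factor gene (0.37), Mmrn1 (0.46) and Atp6v0d2, a subunit gene of the proton pump of osteoclasts and macrophages (0.47). For Ccl9 they were Cd83 (0.30), Atf3 (0.37) and Stc2 (0.46). For Ccl3 they were the endolysosomal peptide transporter gene Slc15a3 (0.21), the chemokine gene Cxcl14 (0.39) and the fatty acid binding protein gene Fabp4 (0.43). For Ccl28 the nearest was Tmem267 (0.72), followed by Ren2 (0.79), which was not called, and 1600014C23Rik (0.80). These distances are on the log2 scale and cannot be read as shared control.

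Of 11 CC chemokine receptor genes 7 were tested, with 1 higher and 1 lower, against 18.8% and 30.3% of all tested genes. Ccr1, the receptor of Ccl3, Ccl5, Ccl6 and Ccl9, had -1.04, -3.42 and -4.25 in AROM+ testes, against -5.81, -7.05 and -5.98 in WT testes. The groups did not overlap and replicate 1 was again the highest AROM+ array. The probe was well above background on 3 AROM+ arrays and 2 WT arrays. The difference was 3.38 ± 0.80 (limma, adjusted p = 0.0159), and it was 2.45 to 4.05 and called without any 1 array. With normexp it was 2.25 and called. Ccr6, the receptor of Ccl20, was lower by a small amount (-0.55 ± 0.12). Ccr2 (0.81 ± 0.61, limma, adjusted p = 0.306) did not pass, and AROM+ replicate 1 stood far above the other AROM+ arrays. Ccr10, a receptor of Ccl28, and Ccr3, a receptor of Ccl11 and Ccl28, were too dim to be tested.

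Of 6 atypical and decoy receptor genes tested, 3 were higher, against 18.8% of all tested genes. Ccrl2, which binds chemoattractants without signalling as a classical receptor, had -2.13, -2.75 and -2.15 in AROM+ testes, against -4.28, -4.06 and -4.42 in WT testes. This difference of 1.91 ± 0.19 was large beside the spread of both groups (limma, adjusted p = 0.00304). Ackr1, which carries chemokines across the endothelium of small veins, rose by 2.96 ± 0.67 (adjusted p = 0.0139), and Ackr3 by 0.51 ± 0.13. The call of Ackr3 was lost without WT replicates 2 or 3 and with scaling to the spike-in spots. Ackr2, a scavenger of inflammatory CC chemokines, differed by 0.07 ± 0.33.

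Among 17 genes of signalling downstream of chemokine receptors, 8 were higher, against 18.8% of all tested genes. The median difference of the 17 was 0.54. Rgs1, which ends G-protein signals in leukocytes, was well above background in AROM+ testes and on no WT array. Under the main background handling it was at least 8.21-fold higher, or 3.04 on the log2 scale (limma, adjusted p = 0.00274). With normexp its log2 difference was 2.08, below that bound. The G-protein subunit gene Gng2 rose by 2.70 ± 0.29, and the subunits of the leukocyte phosphoinositide 3-kinase Pik3r5 by 2.61 ± 0.41 and Pik3cg by 2.12 ± 0.29. Arrestin gene Arrb1 rose by 0.71 ± 0.10. Gnai2, a G-protein subunit gene of most cell types, gave 0.32 ± 0.13 and was not called.

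Among 18 genes of transcription factors, their regulators and cytokines that act on CC chemokine transcription, 15 were tested. Of these, 7 were higher and 1 was lower, against 18.8% and 30.3% of all tested genes. Leaving out 1 array gave 3 to 7 higher (3 without WT replicate 1). Cebpb, a transcription factor gene of activated macrophages, had 1.46, 0.97 and 1.17 in AROM+ testes, against -0.81, -0.68 and -1.18 in WT testes, a rise of 2.09 ± 0.18 (limma, adjusted p = 0.00223). Rises among NF-kB genes were smaller, with Relb at 0.92 ± 0.14 and the inhibitor genes Nfkbia at 0.73 ± 0.16 and Tnfaip3 at 0.87 ± 0.22. Rela gave 0.06 ± 0.09, Nfkb1 gave -0.30 ± 0.15 with another probe at 1.28, and Nfkbiz fell (-0.55 ± 0.18, limma, adjusted p = 0.0448). Relb has 3 probes, of which the others gave -0.06 and 0.83. Irf1 rose by 1.06 ± 0.27 and Fos by 1.12 ± 0.30, and Fos gave 0.56 with normexp. When 1 array was left out, the calls of Tnfaip3 and Irf1 were lost in 3 of 6 fits each and that of Fos in 4. The cytokine gene Il1b gave -0.02 ± 0.19, and Tnf, Il6 and Ifng were too dim to be tested.

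Glycosaminoglycans are sugar chains that hold chemokines on cell surfaces and matrix. Of 8 genes for proteins that carry or build these chains, 5 were higher, against 18.8% of all tested genes. They were the proteoglycan genes Srgn (1.23 ± 0.23) and Vcan (1.08 ± 0.20) and the chain-building enzyme genes Hs6st1 (1.06 ± 0.22), Ndst1 (0.84 ± 0.11) and Ext1 (0.56 ± 0.12). The second probe of Vcan gave -0.02, and the other probes of Ndst1 gave -0.07 and 0.48.

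Of the other 14 CC chemokine genes, 10 had a probe and 8 were tested. With limma after adjustment, 3 of the 8 were lower and 0 higher, against 30.3% and 18.8% of all tested genes. At an unadjusted p under 0.05, 3 were lower and 1 higher. The falls were small, with Ccl27a at -0.43 ± 0.10, Ccl25, a thymic and gut chemokine, at -0.41 ± 0.10 and Ccl17 at -0.37 ± 0.11. The call of Ccl17 was lost without 4 of the 6 arrays, that of Ccl25 without WT replicates 1 or 3, and that of Ccl27a without WT replicate 3 and with quantile normalization, where it gave -0.21. Without WT replicate 3 the count of falls was 0. Ccl12, a Ccr2 ligand between Ccl11 and Ccl8, had -0.87, -2.69 and -4.25 in AROM+ testes, against -3.97, -4.47 and -3.84 in WT testes, and was not called (1.49 ± 0.76, adjusted p = 0.151). It overlapped in AROM+ replicate 3, as Ccl7 did. The eosinophil chemokine gene Ccl24 gave 1.27 ± 0.47 (adjusted p = 0.0661). Without AROM+ replicate 3, 2 genes of this list were called higher.

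Markers of germ cells (8 genes), Leydig cells (6) and Sertoli cells (7) were measured on all arrays of both groups. The counts of called markers below stand against 18.8% of all tested genes called higher and 30.3% called lower. Of 11 macrophage markers 9 were higher and 1 lower, with a median difference of 1.87. Their signals relative to the 75th percentile summed to 52.8 to 70.2 in AROM+ testes, against 31.9 to 45.5 in WT testes, and none was at background. Lyz2 (2.79 ± 0.36), Tyrobp (2.68 ± 0.27) and Cd68 (2.40 ± 0.28) led them, while the brightest Csf1r probe gave -0.44 and its other probes 2.04 and 1.54. Of 7 endothelial markers 6 were higher and 1 lower. Of 10 T and NK cell markers 1 was higher and 2 lower, against 18.8% and 30.3% of all tested genes. Of 9 neutrophil markers 3 were higher and 1 lower. When 1 array was left out, the T and NK cell counts were 1 to 4 higher and 0 to 3 lower, and 1 to 4 neutrophil markers were higher. The count of T and NK cell rises was 4 without AROM+ replicate 2, and that of neutrophil rises was 1 without WT replicate 1. Germ cell markers, which summed to 143 to 152 in AROM+ testes, against 166 to 234 in WT testes, had 5 of 8 lower, and 2 to 4 when any 1 array was left out. Of 7 general epithelial markers, the cell class that makes Ccl28 elsewhere, 2 were lower, against 30.3% of all tested genes. Of 6 epididymal and seminal vesicle markers 2 were higher and 3 lower, and their signals summed to 17.8 to 24.7 in AROM+ testes, against 2.71 to 3.51 in WT testes. The seminal vesicle genes Svs6 (4.59 ± 0.34) and Svs5 (3.17 ± 0.19) rose and Svs4 (-1.01 ± 0.10) fell, while the epididymal genes Lcn5, Lcn8 and Adam7 were at background on all arrays. The part of any of these cell types in the chemokine differences was not tested. All 6 arrays lay on 1 slide with AROM+ in one row and WT in the other, so row and genotype cannot be told apart.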

How the data were processed

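Expression was measured in 6 whole testes, 3 AROM+ and 3 WT, grouped by the genotype in the labels, which name single testes as replicates. Limma p-values measure the spread between these testes, and whether each came from a separate animal is not stated outright in the labels. The deposited scanner files give an intensity for each spot, already background-corrected in the processed signal, per the file headers. Those headers name Agilent Feature Extraction 10.7.3.1, where the submitters' processing notes name 10.10. The authors also deposited a table of log2 values, whose columns follow log2 of the processed signal with a slope of 1.00 minus a constant per array. Its column medians were -3.05, -3.09 and -3.02 in AROM+ and -3.12, -3.11 and -3.09 in WT, and genes were not centred.

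From the scanner files, the processed signal was put on the log2 scale and the 75th percentile of the non-control spots of its array was subtracted. Spots with outlier flags were left out (123 to 192 per array, none of a member), and spots of a probe were averaged. No spot was saturated, 76.6% to 80.6% of spots were well above background, and the number of arrays limits the precision. A probe was kept if well above background on all 3 arrays of a group (42636 of 55681). Probes were fitted with limma 3.58.1 in R 4.3.3 (lmFit, eBayes) with Benjamini-Hochberg adjustment over all kept probes, a threshold of 0.05, and a gene taken as its brightest kept probe. Intervals are 95% and unadjusted. Names came from the RefSeq table of GRCm38.p6 by accession, symbol or synonym, for 26067, 3814 and 637 probes. A fold against a group at background was computed against a floor per array, which is the dimmest signal called well above background, or the value of the probe where that is brighter.

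The members and gene lists were chosen with earlier results of these data known. All members are named with all probes, as are up to 6 called genes of each other list by smallest p, and the 3 most similar profiles of at most 4 members. Genes beyond that rule are named where a statement singles them out, chosen after their values were seen, and some genes that the rule names are left out of the text. The fit was tested on simulated data. Other background corrections, scalings, filters, probe summaries, variance models, a replicate block and leaving out each array were tried, and 0 columns of other samples were present.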

Additional observations from a re-analysis of the deposited data

How the results depend on the processing

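With 3 arrays per group and 1 probe per gene, the precision is limited by the number of arrays. For dim probes the size depended on the background correction, and normexp gave 3.20 for Ccl3, 1.31 for Ccl4 and -1.54 for Ccl28. The 9 tested CC chemokines kept their direction under all 19 other settings, and Ccl6, Ccl9, Ccl3 and Ccl4 were called in each. The number of members called higher was 5, and 4 to 6 when 1 array was left out, with Ccl2 lost and Ccl7 or Ccl8 gained. The number called lower was 1, and 0 to 1 when 1 array was left out, and it was 0 with no filter on dim probes. The replicate block, which took the replicate number as a term, called 4 higher and 1 lower, with Ccl2 at an adjusted p of 0.0503. It changed no other member's call. The deviations of same-numbered arrays correlated at 0.05, -0.15 and 0.04, so the numbers were not taken as pairs. Over all probes, 5982 were called higher, against 3814 without WT replicate 3, 3960 without WT replicate 1 and 3894 with scaling to the spike-in spots. That scaling and centring on the gene median were chosen after seeing the data. With them Ccl6 differed by 5.00 and 4.96 and Ccl28 by -2.20 and -2.24. The median of all probes was -0.19, and -0.25 and -0.29 with those scalings.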

Other observations

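Markers of the other cells that could make or follow CC chemokines were measured in the same limma fit. Their counts stand against 18.8% of all tested genes called higher and 30.3% called lower. Of 5 eosinophil markers 1 was higher, the ribonuclease gene Ear1 (2.92 ± 0.74), whose call was lost without WT replicates 1 or 3. The 2 tested mast cell markers were not called, and at an unadjusted p under 0.05 the count was also 0. Of 5 B and plasma cell markers 1 was higher and 2 lower, with 1 to 2 lower when 1 array was left out, and the gene that rose was the antigen receptor gene Cd79b (2.10 ± 0.32), while Pax5 gave -0.47. Of 4 dendritic cell markers 1 was higher and 2 lower. The integrin gene Itgax rose by 4.23 ± 0.45, and Zbtb46 and Flt3 gave -0.80 and -0.46, and the call of Flt3 was lost without WT replicate 3 and with the mean of its probes, where it gave -0.23. Of 7 fibroblast and peritubular markers 5 were higher, led by Col1a1 (1.76 ± 0.24) and the receptor gene Pdgfrb (1.05 ± 0.12), and 3 to 4 were higher when any 1 array was left out. Of 6 Leydig cell markers 3 were higher, namely the luteinizing hormone receptor gene Lhcgr (3.72 ± 0.94), whose call was lost without 4 of the 6 arrays, Cyp11a1 (1.75 ± 0.37) and Hsd3b1 (1.30 ± 0.19). Of 7 Sertoli cell markers 2 were higher, Gata4 (0.93 ± 0.14) and Fshr (0.86 ± 0.27). The call of Fshr was lost in 4 of the 6 fits that left out 1 array. Neutrophil markers that rose were Retnlg (3.41 ± 0.45), S100a8 (2.73 ± 0.67) and S100a9 (1.69 ± 0.55), and Mpo fell by 0.87. Retnlg and S100a8 were well above background on 3 AROM+ arrays and 1 WT array, so their sizes rest largely on WT signals at background, and with normexp they were 1.63 and 1.27. The call of S100a9 was lost in 4 of the 6 fits that left out 1 array and with no filter on dim probes, and that of S100a8 without WT replicate 1. No explanation of these values was tested.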
